A study of Mus musculus with 6 samples.

Results

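The 40 genes described here carry cells through the division cycle: cyclins and their kinases, inhibitors of those kinases, the machinery that copies DNA, the enzymes that supply deoxynucleotides or remove uracil from DNA, and the apparatus of mitosis. They were taken by symbol from a list, with the condition of a mean of at least 10 scaled counts over the libraries, and all 40 listed symbols met it, out of 23127 genes in the table. A scaled count is a read count divided by a size factor of its library. The rule uses no measured difference between groups, but the list was drawn up with earlier results of these data known. RNA was measured in 6 libraries of sorted Lgr5-GFP high intestinal stem cells from the small intestine of Lgr5-GFP mice on the C57BL/6 strain. The 3 libraries of the IFNg group came from cells kept for 1.5 h with 1 ng/ml interferon gamma (IFNg), a cytokine of T cells and natural killer cells, in ENR medium, which holds EGF, Noggin and R-spondin1. The 3 untreated libraries carry the treatment label "no treatment" and the same 1.5 in their titles. The labels state neither the age nor the sex of the mice, nor whether animals were pooled. The Lgr5-GFP allele is carried by both groups, and the cells were chosen on GFP, so the results hold for cells with high reporter signal. The titles also carry a tag, GFP1 in 1 library of each group (untreated 5 and IFNg 6) and GFP3 in the other 2 (untreated 1 and 9, IFNg 2 and 10), and no label explains it. Nothing in the labels says that the libraries of a group came from separate animals, so the p-values measure the spread between these libraries. Genes of the sex chromosomes, given below, differed within each group, so 1 library of each group came from other mice than the remaining 2, for which separate animals are not shown.

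Cell division is driven by cyclins that rise and fall and switch on cyclin-dependent kinases (CDKs). D-type cyclins with CDK4 start the G1 phase, cyclin E with CDK2 drives entry into S phase, cyclin A with CDK2 and CDK1 acts in S and G2, and cyclin B with CDK1 starts mitosis. E2F transcription factors switch on the genes of DNA replication, and the MCM helicase opens the DNA for copying. Intestinal stem cells that express Lgr5 cycle actively, at the base of the crypt. IFNg switches on transcription factors such as IRF1 and is known to slow the division of many cell types.

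The libraries held between 28508762 and 40224497 reads in genes. The IFNg response itself was present: Irf1, the transcription factor IRF1, rose by 5.07 on the log2 scale (adjusted p = 2.33e-05). Libraries differed in ways the groups do not explain. Xist, expressed from the inactive X chromosome of females, stood at 8336 and 6147 scaled counts in untreated 1 and IFNg 2 and at no more than 16.9 in the other 4, while the Y-linked Ddx3y stood at 1.72 and 0.964 in those 2 libraries and between 4219 and 6346 elsewhere. Mitochondrial genes took from 1.35% of gene counts (untreated 1) to 6.81% (untreated 5). Of 10 stem cell markers 0 passed with limma, edgeR or DESeq2. At an unadjusted p under 0.05, 2 were higher with IFNg (20%, against 8.46% of all genes) and 0 lower. The IFNg libraries all lay above the untreated ones for 2 (20%, against 8.13%). In the GFP3 libraries alone 3 of the 10 passed limma as higher (against 8.27% of all genes). The summed Paneth cell markers were at 124111, 178990 and 405946 scaled counts in untreated 5, 1 and 9 and at 41146, 118405 and 223877 in IFNg 6, 2 and 10. All 10 had a log2 change below 0 (median -0.97), and the sum was lower in each IFNg library than in its neighbour, while 0 of 10 passed with any of the 3 tools and 0 had an unadjusted p under 0.05. Enteroendocrine markers summed to 6847, 14697 and 21395 untreated and to 5162, 8204 and 17863 with IFNg, also lower in each pair, with 0 of 7 passing and 0 at an unadjusted p under 0.05. Goblet cell markers summed to between 66136 and 233374 in untreated libraries and between 76771 and 152745 with IFNg. Enterocyte markers summed to between 25069 and 34254 and between 21868 and 35688 in the same groups, and stromal markers to between 186 and 620 and between 189 and 590. Immune cell markers, of which 7 of 9 were in the table, summed to between 72.3 and 138 over all 6 libraries. The part of these differences in the results was not tested.

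Promoter sequence can be set beside the values, because the regulatory letters of cell cycle genes are well known. RefSeq (GRCm38.p6) held 35 promoters for 32 of the 40 genes, and none for Aurkb, Ccna2, Ccnd1, Ccnd2, Ccne2, Gins2, Kif20a and Mcm4. In the 250 bases before each start, 5 motifs were searched on both strands: the gamma-activated site GAS (TTCNNNGAA), the core of the interferon-stimulated response element (AAANNGAAA), the E2F site (TTTGGCGC, TTTCCCGC, TTTGCCGC or TTTCGCGC), the cell cycle homology region CHR (TTTGAA or TTCGAA) and the CCAAT box. Matches of different motifs may overlap. The sequences below are those of the gene that passed the test, of a second gene whose groups did not overlap, and of a replication gene and a proliferation mark that did not pass the test and hold typical cell cycle motifs. Capitals mark motif matches, which in Mcm6 include 2 E2F matches that share letters.
Ung, chr5:114130185-114130385, plus strand: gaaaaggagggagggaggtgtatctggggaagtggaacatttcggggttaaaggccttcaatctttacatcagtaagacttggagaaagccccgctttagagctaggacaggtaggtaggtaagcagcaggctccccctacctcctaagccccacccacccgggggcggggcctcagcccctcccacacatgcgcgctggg
Ccne1, chr7:38107535-38107740, minus strand: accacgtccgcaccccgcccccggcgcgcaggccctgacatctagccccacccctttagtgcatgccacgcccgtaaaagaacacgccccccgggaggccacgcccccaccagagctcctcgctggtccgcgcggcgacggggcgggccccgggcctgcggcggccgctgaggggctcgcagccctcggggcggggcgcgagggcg
Mcm6, chr1:128359706-128359955, minus strand: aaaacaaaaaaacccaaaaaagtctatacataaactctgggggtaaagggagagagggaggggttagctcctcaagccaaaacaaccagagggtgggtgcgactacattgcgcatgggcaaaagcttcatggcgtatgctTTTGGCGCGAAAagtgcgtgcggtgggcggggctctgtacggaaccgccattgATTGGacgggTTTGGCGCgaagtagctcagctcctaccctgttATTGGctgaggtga
Mki67, chr7:135716380-135716629, minus strand: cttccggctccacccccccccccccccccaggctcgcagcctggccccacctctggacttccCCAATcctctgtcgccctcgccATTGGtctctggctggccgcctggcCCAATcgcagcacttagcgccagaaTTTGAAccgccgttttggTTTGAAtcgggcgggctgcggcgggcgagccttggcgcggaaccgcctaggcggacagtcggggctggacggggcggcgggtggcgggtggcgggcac
The Ung and Ccne1 sequences stop where the annotated exons begin, with their last base at positions -50 and -45 from the RefSeq start. Neither holds a match to any of the 5 motifs in its full 250 bases. The promoters of Birc5, Cdk4, Cdkn1a, Tk1 and Tyms hold none either, and these genes did not pass the test. For E2f1, which did not pass either, the RefSeq start lies inside the annotated gene. The 250 bases before that start hold no match but lie inside the gene too. The sequence upstream of the annotated E2f1 gene was thus not searched. The Mcm6 promoter holds 3 E2F matches and 2 CCAAT boxes, and that of Mki67 holds 2 CHR matches and 3 CCAAT boxes. Over the promoters of the listed genes, E2F matches stood in 5 of 35 (14.3%, against 1.86% of all 32851 promoters), CHR in 9 (25.7% against 17.1%) and CCAAT in 25 (71.4% against 33.8%). Of the letters of the IFNg pathway, GAS matches stood in 1 (2.86% against 7.02%, in Mcm5) and the response element core in 3 (8.57% against 9.37%, in Bub1b, Mcm3 and Rrm1). These counts use the full 250 bases before each RefSeq start. Some matches thus lie past the point where annotated exons begin, as do the CCAAT boxes of Cenpa and Pcna. A match is a description of letters and not a bound site.

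Of the 40 genes, only Ung, the uracil-DNA glycosylase, passed the limma test after IFNg (2.5% of the genes). It rose 4.05-fold. Over all 16095 genes tested, 0.416% passed as higher and 0.0124% as lower. None of the 40 passed as lower, and edgeR and DESeq2 each gave the same counts, 1 higher and 0 lower, against 0.373% and 2.84% of all genes called higher by those tools. At an unadjusted p under 0.05, 3 of the 40 (7.5%) were higher, against a background of 8.46%, and 0 were lower, against 0.758%. The 3 were Ung, Ccna2 and Ccne1, and they were also the genes whose 3 IFNg libraries all lay above the 3 untreated ones (7.5%, against 8.13% of all genes), while 0 lay below (against 5.06%). These shares are near the background, so they do not set the list apart from other genes. The median log2 change was -0.10, beside -0.08 for all genes, and 9 of the 40 were above 0 (22.5%, beside 42.9% of all genes). The 95% interval of the change lay within 2-fold in either direction for 29 of the 40 (72.5%, beside 32.3% of all genes) and within 4-fold for 37. For those 29 genes a 2-fold change was thus outside the interval at 1.5 h, and smaller changes were not resolved.

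**Figure D1:**
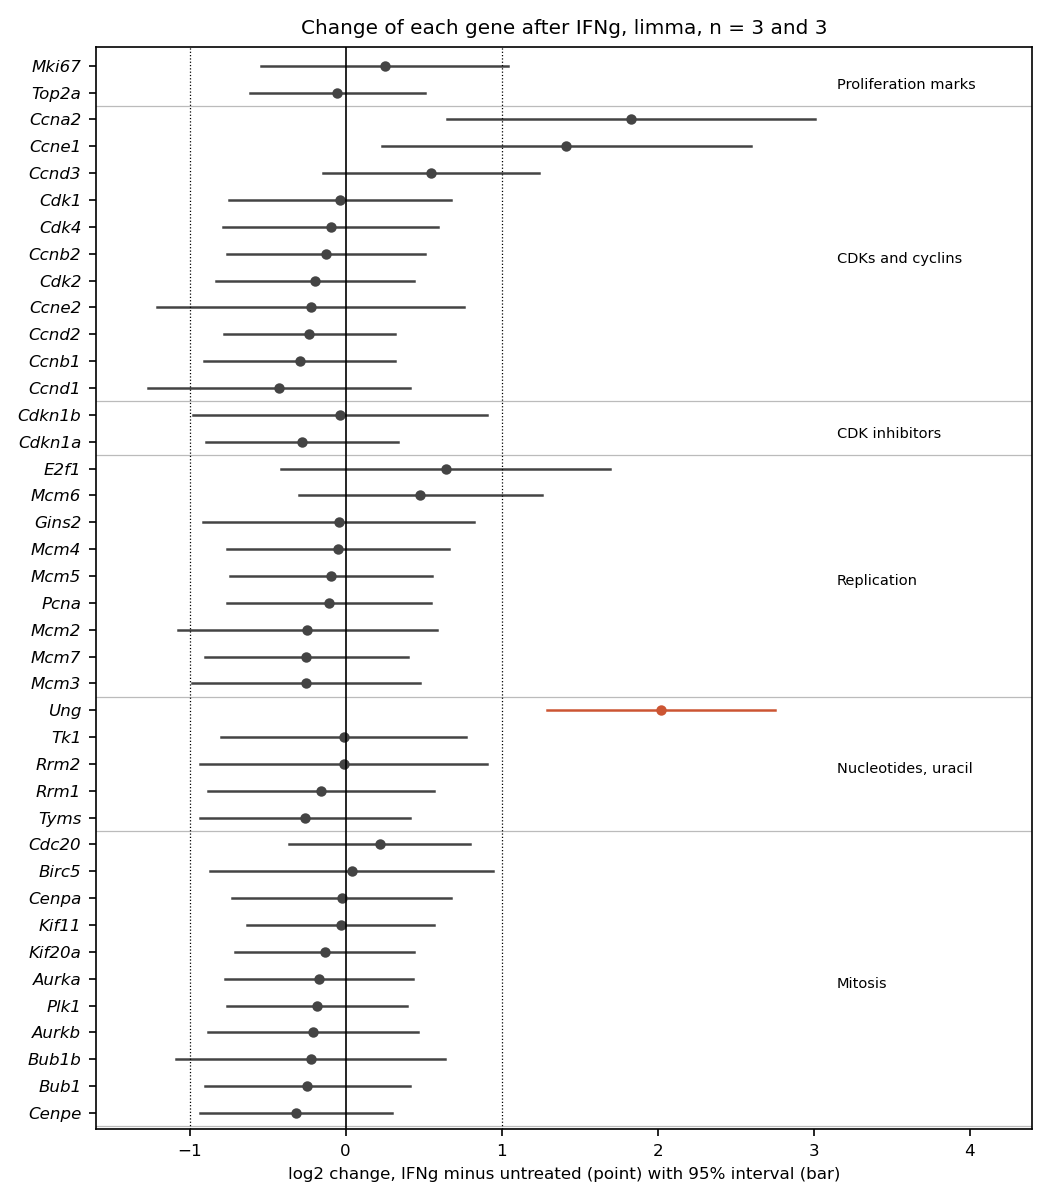
Log2 change after IFNg (point) with its 95% interval from limma (bar) for the 40 genes grouped by role, 3 untreated against 3 IFNg libraries, with dotted lines at a 2-fold change. Ung, in red, is the gene that passed the test at 2.02, and the intervals of 29 genes lie between the dotted lines.

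Ung removes uracil that has entered DNA in place of thymine or arisen from cytosine, the entry step of base excision repair. The gene lies on the plus strand of chromosome 5 (mm10, 114130386 to 114139323), with no exon bases shared with another counted gene. Its scaled counts were 126, 86.9 and 84.5 in untreated 5, 1 and 9 and 350, 454 and 401 in IFNg 6, 2 and 10. The groups did not overlap, and the lowest IFNg library stood well above the highest untreated one. The means were 99.3 ± 23.6 and 402 ± 52.2 (SD, n = 3 each). The log2 change was 2.02 (SE 0.32, 95% interval 1.29 to 2.76, limma adjusted p = 0.0417), with edgeR at 0.0440 and DESeq2 at 7.65e-08. Between libraries with neighbouring numbers, the ratio was 2.77 (6 over 5), 5.23 (2 over 1) and 4.75 (10 over 9). With these pairs as a block, the adjusted p was 0.0621 and the call was lost. The call also ended when any library but untreated 5 was left out. Omitting untreated 1 gave an adjusted p of 0.181, omitting untreated 9 gave 0.205, and omitting IFNg 6, IFNg 2 or IFNg 10 gave 0.0524, 0.316 and 0.197 in turn, while omitting untreated 5 gave 0.0177. The log2 change stayed between 1.85 and 2.30 over all 18 alternatives, of which 10 passed. Among the other genes of base excision repair, 0 of 14 tested passed limma in either direction, 0 had an unadjusted p under 0.05, and edgeR and DESeq2 called none. Their median log2 change was -0.15 and 1 of the 14 was above 0, Tdg, the thymine-DNA glycosylase, at 0.47, which did not pass. In 1 of the 14 the IFNg libraries all lay below the untreated ones (7.14%, near the 5.06% of all genes). That gene was Ogg1, which removes oxidised guanine, at 304, 284 and 240 with IFNg against 395, 362 and 316 untreated (limma adjusted p = 0.864).

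Ccna2 encodes cyclin A2, the cyclin of S and G2 phase, and lies on the minus strand of chromosome 3 (mm10, 36564865 to 36572150). It stood at 1577 scaled counts in untreated 5 and at 432 and 356 in untreated 1 and 9, and at 1787, 2332 and 2634 in IFNg 6, 2 and 10. The groups did not overlap, but untreated 5 lay close to the IFNg libraries and far from the other 2 untreated ones. The means were 788 ± 684 and 2251 ± 429, a 2.86-fold difference. The log2 change of 1.83 (95% interval 0.65 to 3.01) did not pass the limma test (adjusted p = 0.298), and over the alternatives the adjusted p ran from 0.00155 to 1. Within the GFP1 libraries IFNg 6 was 1.13 times untreated 5, whereas in the GFP3 pairs the ratio was 5.40 and 7.39. In the GFP3 libraries alone the log2 change was 2.66 (adjusted p = 0.00155, where 8.27% of all genes passed as higher), and without untreated 5 it was 2.5 (adjusted p = 0.00723, where 2.27% did). The log2 change in the GFP1 pair minus that in the GFP3 pairs was -2.48, a difference that did not pass the test over all genes (adjusted p = 0.117, unadjusted 3.73e-04). Of the exon bases of Ccna2, 12.5% are shared with Exosc9 on the other strand, a subunit of the RNA exosome. Exosc9 was at 1782, 1312 and 1033 in the untreated and at 1603, 1036 and 955 in the IFNg libraries, so it was lower and not higher in each IFNg library than in its neighbour.

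Ccne1, cyclin E1 of the G1/S step, lies on the minus strand of chromosome 7 (mm10, 38097984 to 38107534). Its scaled counts were 136, 107 and 45.3 in untreated 5, 1 and 9 and 137, 246 and 378 in IFNg 6, 2 and 10. The groups did not overlap, yet IFNg 6 and untreated 5 were nearly equal. The mean was 96.0 ± 46.2 untreated and 254 ± 121 with IFNg, a 2.64-fold difference, and the ratio was 1.01 in the GFP1 pair, 2.30 between libraries 2 and 1, and 8.34 between 10 and 9. The log2 change of 1.41 (95% interval 0.23 to 2.60) did not pass the limma test (adjusted p = 0.403, from 0.0290 to 1 over the alternatives). It passed in the GFP3 libraries alone, at 2.12 (adjusted p = 0.0290), and was 0.95 without untreated 9 and 0.61 without libraries 9 and 10. Ung passed in the GFP3 libraries as well, at 2.30 (adjusted p = 0.00426), so that 3 of the 40 were called there (7.5%, near that fit's background), and 0 were called lower. The test of treatment by tag called 0 of the 40 and 0% of all genes. With 1 GFP1 library in each group, this test takes its spread from the 4 GFP3 libraries and assumes that the GFP1 libraries vary like them. At an unadjusted p under 0.05 it gave 2 of the 40, Ccna2 and Ccne1 (adjusted p = 0.117 and 0.309), against 13.2% of all genes.

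Immediate early genes, which answer cell handling and many other stimuli within minutes, also summed to more in the IFNg libraries, most so in IFNg 10. Their 9 listed genes summed to 85670, 84667 and 91708 scaled counts in untreated 5, 1 and 9 and to 107798, 138445 and 189614 in IFNg 6, 2 and 10. Egr1, a zinc finger transcription factor of this class, was at 8645, 6279 and 5529 against 12601, 28984 and 47443 (limma adjusted p = 0.211, DESeq2 0.00108). By limma 0 of the 9 passed and edgeR called 0. At an unadjusted p under 0.05, 3 were higher (33.3%, against 8.46% of all genes), and DESeq2 called 3, Egr1, Jun and Dusp1 (against 2.84%). The groups did not overlap for 4 of the 9, all higher with IFNg (44.4%, against 8.13%). Their part in the values of Ccna2, Ccne1 and Ung was not tested.

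**Figure D2:**
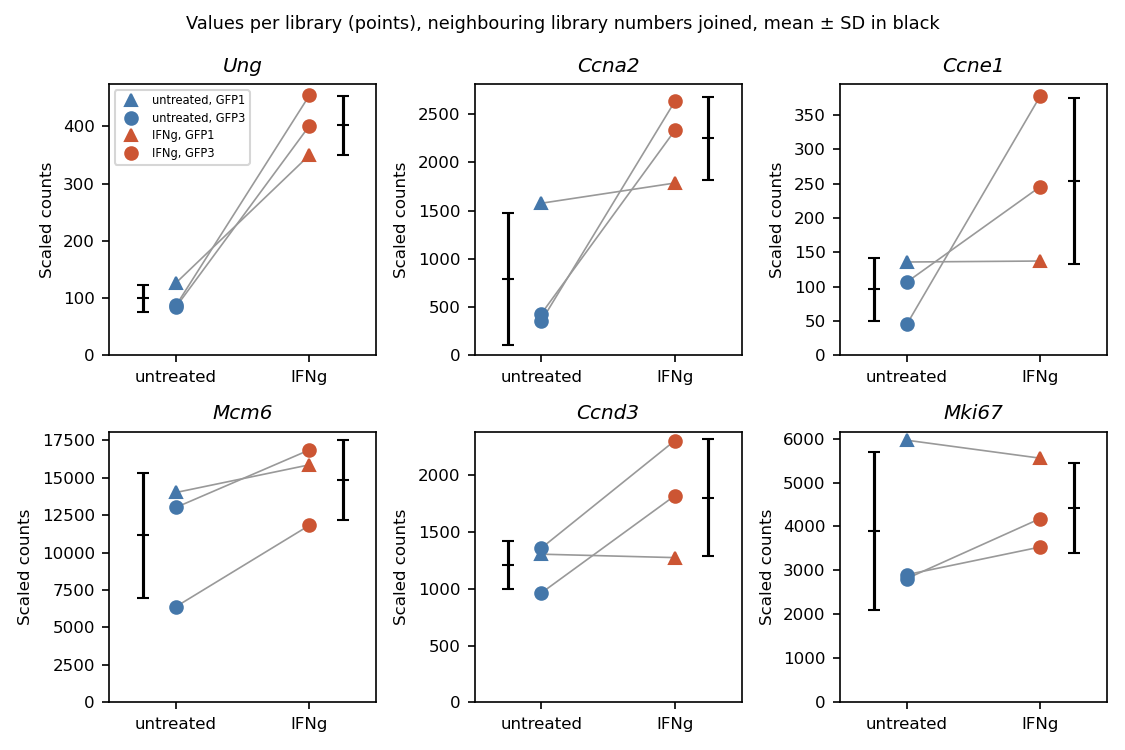
Scaled counts of 6 genes in each library (triangles GFP1, circles GFP3), with lines joining libraries of neighbouring number and the mean ± SD of each group in black. The 3 lines of Ung rise from between 84.5 and 126 to between 350 and 454, while for Ccna2 and Ccne1 the GFP1 line is nearly flat.

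The other 9 genes of the kinase and cyclin group did not pass the test. Cdk1, the kinase that starts mitosis, was at 3204, 2286 and 2216 scaled counts in untreated 5, 1 and 9 and at 3567, 2245 and 1872 in IFNg 6, 2 and 10. The groups overlapped, with the GFP1 library highest in each, and the means of 2569 ± 551 and 2561 ± 890 were nearly equal. The log2 change was -0.04 (95% interval -0.75 to 0.67, adjusted p = 0.986), and DESeq2 gave it the other sign at 0.02. Cdk2 and Cdk4, the kinases of S phase and G1, had log2 changes of -0.20 and -0.09. Ccnb1, cyclin B1, the partner of CDK1, was at 1343, 1489 and 1218 untreated and at 1391, 1012 and 937 with IFNg. IFNg 6 lay among the untreated libraries and the other 2 below them, with a log2 change of -0.29 (95% interval -0.90 to 0.32, adjusted p = 0.880). Ccnb2, cyclin B2, stood at -0.12.

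None of the 3 D-type cyclins, which couple growth signals to G1, passed the test. Ccnd1 was at 1040, 2793 and 1420 untreated and at 1248, 1065 and 1272 with IFNg. Untreated 1 stood apart at the top and the IFNg libraries lay close to each other, within the range of the untreated ones. Its log2 change of -0.43 was the lowest of the 40 (95% interval -1.27 to 0.41, adjusted p = 0.879), and without libraries 1 and 2 it was 0.05. Ccnd2, the D-type cyclin with the highest level per kilobase of exon here, had a log2 change of -0.23. Ccnd3 was at 1305, 1360 and 965 untreated and at 1275, 2305 and 1821 with IFNg, where IFNg 6 again lay with the untreated libraries (log2 change 0.55, 95% interval -0.14 to 1.24, adjusted p = 0.717). Cyclin E2, encoded by Ccne2, had a log2 change of -0.22, opposite in sign to cyclin E1, and untreated 1 was its highest library at 1627. Ccnd1, Cdk4 and Ccne2 share 23.4%, 19.7% and 17.4% of their exon bases with a gene on the other strand.

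Neither CDK inhibitor passed the test. Cdkn1a, which encodes p21, a p53 target that halts the cycle, was at 25244, 35516 and 42325 in untreated 5, 1 and 9 and at 26152, 26373 and 30694 in IFNg 6, 2 and 10. The groups overlapped, since untreated 5 lay below all IFNg libraries, and the log2 change was -0.28 (95% interval -0.90 to 0.33, adjusted p = 0.888). Cdkn1b, which encodes p27, was at 508, 219 and 443 untreated and at 536, 285 and 297 with IFNg (log2 change -0.04, 95% interval -0.98 to 0.90, adjusted p = 0.988). The GFP1 library was the highest in each group. Of 14 further p53 targets, 0 passed limma in either direction and edgeR and DESeq2 called none. At an unadjusted p under 0.05, 1 was higher (7.14%, near the 8.46% of all genes). This was Phlda3, an inhibitor of AKT signalling, at 157, 67.1 and 35.0 untreated and 156, 368 and 241 with IFNg (adjusted p = 0.345).

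The 9 replication genes had a median log2 change of -0.09, with 2 above 0 and 0 passing. E2f1, the transcription factor that drives S phase genes, was at 87.4, 62.8 and 83.4 untreated and at 97.2, 78.1 and 232 with IFNg. IFNg 10 stood apart and the other 5 libraries overlapped (log2 change 0.64, 95% interval -0.41 to 1.70, which did not pass). Mcm2, a subunit of the MCM helicase, was at 4522, 11245 and 6437 untreated and at 4743, 7703 and 5387 with IFNg. In each group the GFP1 library was lowest and library 1 or 2 highest, and the log2 change was -0.24 (95% interval -1.08 to 0.59, adjusted p = 0.922). The other subunits Mcm3, Mcm4, Mcm5 and Mcm7 lay between -0.25 and -0.05.

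Mcm6, a subunit of that same ring, lay on the other side of 0. Its scaled counts were 14005, 13010 and 6392 in untreated 5, 1 and 9 and 15850, 16844 and 11816 in IFNg 6, 2 and 10. Each IFNg library was above its neighbour, but IFNg 10 was below untreated 5 and 1. The means were 11136 ± 4138 and 14837 ± 2663, and the log2 change of 0.48 did not pass the test (95% interval -0.30 to 1.26, adjusted p = 0.849, or 0.378 with the pairs as a block). Pcna, the sliding clamp of DNA polymerase, was at 3863, 3543 and 3400 untreated and at 4744, 3115 and 2524 with IFNg. The IFNg libraries lay on both sides of the untreated ones (log2 change -0.11, 95% interval -0.76 to 0.55, adjusted p = 0.957). Gins2, part of the GINS complex of the replicative helicase, had a log2 change of -0.05, and 67.3% of its exon bases are shared with Gse1 on the other strand. No strand setting of the counting is given, so how reads in the shared bases were counted cannot be told.

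Beside Ung, the nucleotide group held 4 genes, all with a log2 change below 0 and none passing. Rrm2, the regulated subunit of ribonucleotide reductase, was at 2212, 4233 and 1623 untreated and at 2936, 3097 and 1627 with IFNg. The groups overlapped throughout, with untreated 1 highest (log2 change -0.01, 95% interval -0.93 to 0.91, adjusted p = 0.997). Tyms, thymidylate synthase, which makes the thymine nucleotide, was at 3864, 3814 and 2869 untreated and at 3975, 2873 and 2160 with IFNg. Its GFP1 libraries differed little and each GFP3 library with IFNg lay below its neighbour (log2 change -0.26, 95% interval -0.93 to 0.41, adjusted p = 0.902). Rrm1, the large reductase subunit, was at -0.16 and Tk1, thymidine kinase, at -0.01.

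The intervals of the mitotic genes lay within 2-fold for 10 of 11. Their median log2 change was -0.17, with 2 of 11 above 0 and 0 passing. Plk1, a kinase of mitotic entry and spindle assembly, was at 809, 908 and 800 untreated and at 730, 829 and 662 with IFNg. IFNg 2 lay within the untreated range and the other 2 below it, and the means of 839 ± 59.6 and 740 ± 84.3 gave a log2 change of -0.18 (95% interval -0.76 to 0.39, adjusted p = 0.916). Aurkb, the Aurora kinase of the chromosomal passenger complex, was at 1595, 2380 and 1411 untreated and at 1543, 1816 and 1241 with IFNg. Untreated 1 was highest and the rest overlapped (log2 change -0.21, 95% interval -0.88 to 0.46, adjusted p = 0.920). Birc5, which encodes survivin of the same complex, was at 3309, 1719 and 1835 untreated and at 3830, 1826 and 1620 with IFNg. The GFP1 library stood apart in both groups, and the log2 change was 0.04, or -0.01 under TMM scaling (95% interval of the first -0.87 to 0.95, adjusted p = 0.987).

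Cenpe, the kinetochore motor, had the lowest log2 change of the mitotic genes at -0.32, and Cdc20, the activator of the anaphase-promoting complex, the highest at 0.22. The spindle checkpoint kinase Bub1 was at -0.25 and its relative Bub1b at -0.22. Aurora A (Aurka) and the mitotic kinesin Kif20a, with log2 changes of -0.17 and -0.13, and the centromeric histone Cenpa and spindle motor Kif11, at -0.03 each, completed the group. Kif20a shares 29.3% of its exon bases with Cdc23 on the other strand. Of the proliferation marks, Mki67, which encodes the Ki-67 antigen, was at 5961, 2818 and 2905 untreated and at 5553, 4182 and 3534 with IFNg. The GFP1 libraries were again highest, the GFP3 libraries were higher with IFNg, and the log2 change was 0.25 (95% interval -0.54 to 1.04, adjusted p = 0.917). Top2a, the topoisomerase that untangles replicated DNA, was at -0.05.

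**Figure D3:**
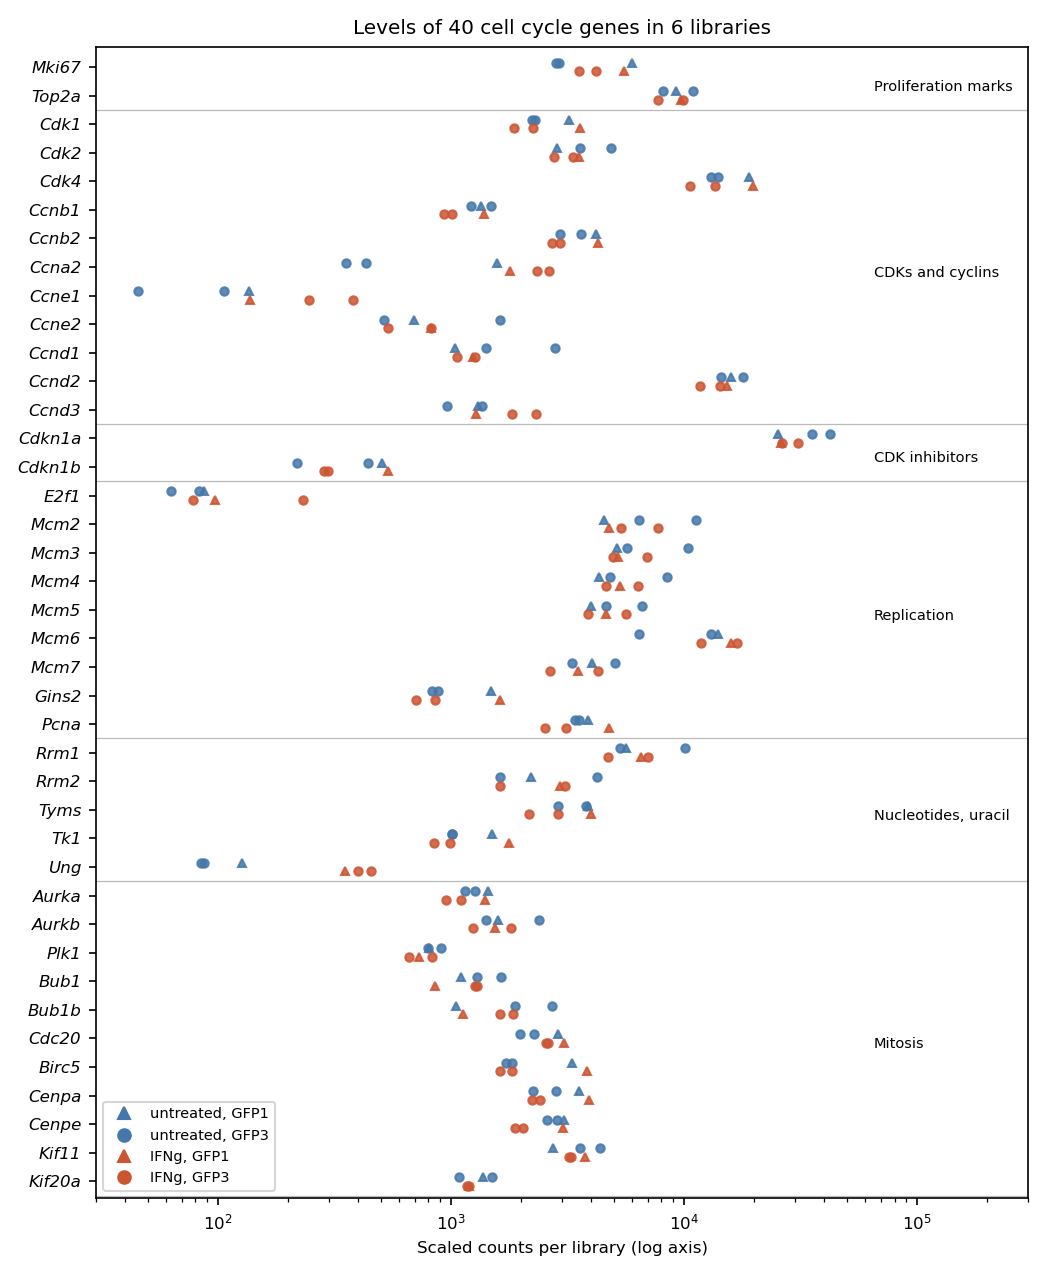
Scaled counts of the 40 genes in all 6 libraries on a log axis, blue for untreated and red for IFNg, triangles for GFP1 and circles for GFP3. Red and blue points overlap for 37 genes, and Ung, Ccna2 and Ccne1 are the exceptions.

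Levels between genes were compared per kilobase of exon. In the untreated libraries Cdkn1a was highest at 9671 scaled counts per kilobase, then Cdk4 at 4728, Mcm6 at 2387 and Ccnb2 at 2335. The low end held Cdkn1b at 85.6, Ccne1 at 36.0, E2f1 at 24.7 and Ung at 18.2, the lowest of the 40. With IFNg, Ung stood at 73.4 per kilobase, above E2f1 at 43.0 and below Cdkn1b at 81.9. Ccna2 went from 193 to 551 per kilobase, the latter above the 519 of Cdk1 in the same libraries.

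The highest and the lowest library of each gene were counted as well. Untreated 1 was the highest of the 6 libraries for 19 of the 40 genes and IFNg 10 the lowest for 18. The shares over all genes were not computed, so these counts do not set the list apart. Summed over the 40 genes, the scaled counts were 169848, 202240 and 161381 in untreated 5, 1 and 9 and 180863, 170745 and 145008 in IFNg 6, 2 and 10, so the groups overlapped. This sum took between 0.465% and 0.590% of the gene counts of a library. In bulk RNA, the share of cycling cells and the amount of RNA of these genes per cell cannot be told apart. The pairs of neighbouring libraries went different ways. IFNg 6 was above untreated 5 for 30 of the 40 genes, beside 51.5% of all genes (median log2 ratio 0.08, beside 0.01 over all genes). IFNg 2 was above untreated 1 for 10 of the 40, beside 45.0% of all genes (median -0.24, beside -0.08). IFNg 10 was above untreated 9 for 13 of the 40, beside 39.8% of all genes (median -0.19, beside -0.18). In all 3 pairs 6 genes were higher (Ccna2, Ccne1, E2f1, Mcm6, Ung and Cdc20) and 6 lower (Ccnd2, Mcm7, Aurka, Aurkb, Plk1 and Cenpe). Over all genes 15.1% were higher and 22.4% lower in all 3 pairs.

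The tag in the titles was tested as well. With treatment as a second term, 2 of the 40 were higher in the 2 GFP1 libraries than in the 4 GFP3 libraries (5%, against 2.28% of all genes) and 0 were lower (against 5.47%). These were Birc5 by 1.03 on the log2 scale (limma adjusted p = 0.0309) and Gins2 by 0.93 (adjusted p = 0.0433). Of the exon bases of Gins2, 67.3% are shared with Gse1. Gse1 was at 1188, 2713 and 1575 in untreated 5, 1 and 9 and at 814, 2815 and 2115 in IFNg 6, 2 and 10. It was thus lower, not higher, in the 2 GFP1 libraries than in the 4 GFP3 libraries. Mki67 at 0.79 (adjusted p = 0.0574) and Tk1 at 0.76 (adjusted p = 0.0653) were next among the higher ones. On the other side Bub1b was at -0.86 (adjusted p = 0.0659) and Mcm2 at -0.68 (adjusted p = 0.169). The difference between tags in untreated libraries and that in IFNg libraries had the same sign for 24 of the 40 genes (60%, beside 63.6% of all genes). For these, 16 were higher in GFP1 in both groups and 8 lower. The GFP1 libraries also held the largest mitochondrial shares, 6.81% and 6.21% against at most 4.07%. The tag and the mitochondrial share cannot be told apart in these libraries.

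**Figure D4:**
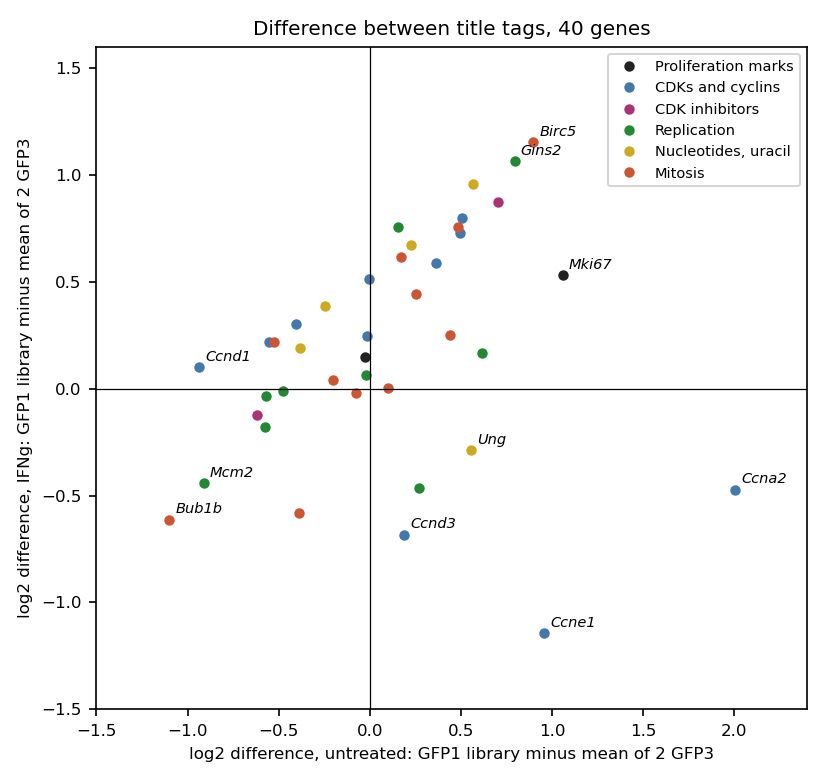
Log2 difference between the GFP1 library and the mean of the 2 GFP3 libraries for each of the 40 genes, in untreated cells on the horizontal axis and in IFNg cells on the vertical axis, coloured by role. Birc5 and Gins2 lie at the upper right in both groups, while Ccna2 and Ccne1 lie at the lower right, higher in GFP1 without IFNg and lower with it.

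Another 95 genes of the cell cycle were examined as 3 lists. Of these, 0 passed limma in either direction, as with edgeR. At an unadjusted p under 0.05, 8 were higher and 0 lower (8.42% of the 95, near the 8.46% of all genes), and DESeq2 called 2 as higher, Cdkn1c and Chaf1a (against 2.84% of all genes). In the GFP3 libraries alone 7 passed as higher, among them those 2 (against 8.27% of all genes). None of these counts sets the 95 genes apart from the background. The 17 further G1/S genes had a median log2 change of 0.43, beside -0.08 for all genes, and 14 were above 0 (82.4%, beside 42.9%). At an unadjusted p under 0.05, 4 were higher (23.5%, against 8.46% of all genes). For 5 the IFNg libraries all lay above the untreated ones (29.4%, against 8.13%). The 33 further replication genes had a median of -0.12 with 8 above 0 (24.2%). The 45 further G2/M genes had a median of -0.02 with 20 above 0 (44.4%).

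Within the G1/S list Cdkn1c, which encodes the CDK inhibitor p57, was at 74.8, 43.9 and 20.6 in untreated 5, 1 and 9 and at 114, 120 and 687 in IFNg 6, 2 and 10. The groups did not overlap and IFNg 10 stood far above the others (log2 change 2.34, limma adjusted p = 0.331, DESeq2 0.0185). Rbl2, the pocket protein p130 that represses E2F targets, was at 1395, 946 and 627 against 1461, 1723 and 1835 (log2 change 0.83, adjusted p = 0.457). Again the GFP1 pair differed least. E2f2, an activating E2F, was at 369, 237 and 255 against 414, 445 and 547 (log2 change 0.72, adjusted p = 0.511), and Cdkn2c, the CDK4 and CDK6 inhibitor p18, had a log2 change of 1.33 (adjusted p = 0.527). In the replication list, Chaf1a, a subunit of the chromatin assembly factor, was at 145, 118 and 94.8 against 180, 306 and 811 (log2 change 1.59, limma adjusted p = 0.348, DESeq2 0.0344). Its IFNg libraries were ordered as those of Cdkn1c were. Dbf4, the activator of the kinase Cdc7, was at 1923, 584 and 650 against 2304, 1600 and 1845 (log2 change 1.07, adjusted p = 0.496), while Cdc7 was at 290, 478 and 260 against 224, 243 and 170 (log2 change -0.65, adjusted p = 0.689). The untreated GFP1 library of Dbf4 was thus above 2 IFNg libraries. Among G2/M genes, Nek2, a centrosomal kinase, was at 1730, 1361 and 820 against 2278, 2168 and 2412 (log2 change 0.87, adjusted p = 0.393). Its groups did not overlap. Pkmyt1, the kinase that holds CDK1 inactive, was at 1099, 1001 and 470 against 1185, 2266 and 1520 (log2 change 0.99, adjusted p = 0.454).

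**Figure D5:**
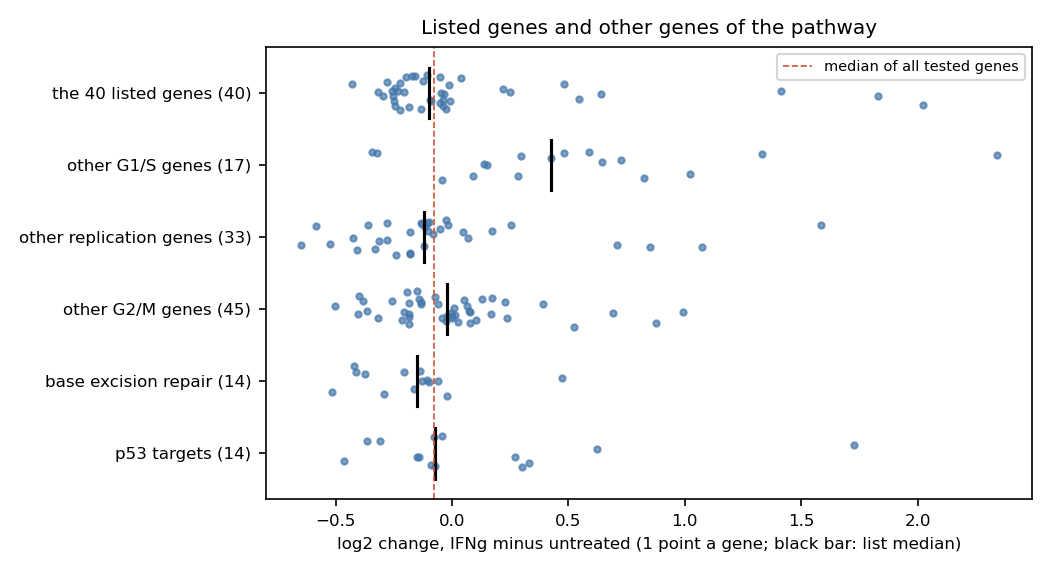
Log2 change after IFNg for each tested gene (points) of the 40 listed genes and 5 further lists, with the list median as a black bar and the median of all tested genes as a dashed line at -0.08. The bar of the further G1/S genes lies at 0.43 and the other 5 bars between -0.15 and -0.02.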

How the data were processed

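RNA from 6 libraries of sorted intestinal stem cells was measured. Per the labels' protocols, each began with 2 ng of total RNA, with 12 cycles of cDNA amplification (SMART-Seq v4) and, from 10 ng of cDNA, 8 cycles of library amplification (KAPA Hyper), so duplicates of amplification are counted as reads. The submitters' processing notes name STAR 2.5.0a, HTSeq 0.5.3, cutadapt 1.6 and DESeq 1.22.1, with the build mm10. The deposited values are scaled counts, a signal that the authors made by dividing read counts by a size factor of each library. Whole reads could be recovered from 100% of the 138762 values (within 0.01 read). The table's 4 rows that name no gene (such as reads not aligned) were left out. They held, per library, 18.5% to 25.0% (not unique), 9.67% to 14.2% (no feature), 8.83% to 15.4% (not aligned) and 0.948% to 1.20% (ambiguous) of all counts in the table.

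Groups were compared with limma 3.58.1 (trend, robust, two-sided) on log2(scaled count + 1) for the 16095 genes averaging 10 scaled counts or more, with Benjamini-Hochberg adjustment over them and a threshold of 0.05. Fold changes on this scale are slightly understated for low genes. edgeR 4.0.16 and DESeq2 1.42.0 on the recovered reads, other pseudocounts and filters, TMM scaling, blocks and left-out libraries were alternatives. The tag as a block in the treatment test was among these, and the test of the difference between tags itself was added after seeing the data. Intervals are from limma at 95%. The script was tested on simulated data. No replicate number is shared between groups. Libraries of neighbouring number (5 and 6, 1 and 2, 9 and 10) deviated from their group means together. Their r over tested genes was 0.302, 0.404 and 0.252, and they were used as pairs in the blocked fit. Libraries 5 and 6 also share the tag, and 1 and 2 the pattern of the sex genes. The 6 other combinations gave r from -0.284 to -0.0308. Centring on the group means pushes these below 0 where the pairs are above it, so they add no separate support. No 2 libraries of a group agreed within sampling noise (chi-square per degree of freedom at least 62.7). Coordinates, exon lengths and exon overlaps came from GENCODE vM21 and promoters from RefSeq (GRCm38.p6). Exon overlaps were sought only with other counted genes. Values in full are given for genes with an unadjusted p under 0.05, genes whose groups did not overlap and lead genes of each role, and for the genes of the other lists with the smallest unadjusted p. Mcm6, Ccnd3, Cdc7, Ogg1, Exosc9 and Egr1 are named beyond that rule, after their values were seen. The members and lists were chosen with earlier results of these data known.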

Additional observations from a re-analysis of the deposited data

How the results depend on the processing

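Over 18 alternatives, the count of the 40 genes passing as higher (1) was 0 with the replicate block, 0 without libraries 1 and 2, 0 without libraries 9 and 10, 3 in the GFP3 libraries alone, and from 0 to 2 when each library was left out in turn. It stayed at 1 under the other alternatives, and the count passing as lower stayed at 0 in all. The count of other cell cycle genes passing as higher (0) was 2 with DESeq2, 7 in the GFP3 libraries alone, and from 0 to 1 with a library left out. Leaving out libraries 1 and 2 or 9 and 10 keeps 2 a group, as do the GFP3 libraries alone. The cause of these shifts in the counts was not tested. For single genes, 272 of 306 values kept their direction and side of the threshold, 8 lost the call, 3 gained it and 23 changed sign. The changes of sign were in 8 genes, none of which passed the test. Cdk1 was at 0.02 with DESeq2, 0.06 without libraries 9 and 10 and from -0.30 to 0.16 with a library left out. Ccnd1 was at 0.05 without libraries 1 and 2. Cdkn1b was at 0.23 without libraries 9 and 10 and from -0.41 to 0.20 with a library left out, and Pcna at 0.06 and from -0.36 to 0.10. Rrm2 was at 0.21 without libraries 1 and 2 and from -0.32 to 0.37 with a library left out. Mcm2 ran from -0.55 to 0.11 and Aurkb from -0.36 to 0.01 with a library left out. Birc5 was at -0.01 with TMM, -0.05 in the GFP3 libraries alone and from -0.35 to 0.34 with a library left out. The replicate block changed no other call. With 3 libraries a group, changes under 2-fold were not resolved for most of these genes.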
